A study of Mus musculus with 4 samples.

Results

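The peak-dense windows were 100 stretches of 50 kb in which open chromatin, read by ATAC-seq, was split into at least 15 separate peak regions. They were found by cutting the 19 autosomes of mm10 into fixed 50 kb windows from position 0, merging the peaks of all 4 libraries by overlap, and counting in each window the merged regions that both wild-type peak lists overlapped. The windows were therefore chosen by the peak calls of the 2 wild-type libraries, and the high wild-type counts in them are a description of that choice. They held 1572 of the 143573 autosomal regions that both wild-type lists overlapped (1.09%), in 0.293% of the 34146 windows with at least 1 such region.

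The libraries came from mouse embryonic stem (ES) cells, which are cultured pluripotent cells, of 2 genotypes with 2 libraries each. One genotype is labelled wt. The other is labelled Hox-/- and its library titles carry the letters BADC, which the labels do not spell out. The peak lists bear on the label: 5 of the 13 windows that overlap Hox genes had no peak region in either Hox-/- library. All cells were kept on the same medium, with serum, leukaemia inhibitory factor (LIF), the GSK-3 inhibitor CHIR99021 and the MEK1/2 inhibitor PD0325901. Nothing in the labels says whether the 2 libraries of a genotype came from separate cultures or clones, so the spread between these libraries may be technical. No genotype p-value is given, because the wild-type lists chose the windows.

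ATAC-seq uses the Tn5 transposase to cut and tag DNA that is not wrapped in nucleosomes, so promoters, enhancers and insulators appear as peaks. Stretches where many such elements lie close together are known from highly transcribed gene clusters, such as those of histones and transfer RNAs (tRNAs), and from genes that several enhancers control. In ES cells, enhancer clusters around pluripotency genes are bound by Oct4, Sox2 and Nanog.

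Sequences from these windows are printed here from RefSeq (GRCm38.p6), because they show what the annotated elements of the windows look like. The first set is promoters, from 250 bases before to 50 after the gene start, of a pluripotency gene (Pou5f1, chr17:35505782-35506081, plus strand), a Wnt feedback gene (Axin2, chr11:108920099-108920398, plus strand) and 2 histone genes (H3c8, chr13:23535168-23535467, and H2ac7, chr13:23574131-23574430, both plus strand). Capitals mark GGGCGG, the GC box bound by Sp and KLF factors, CCAAT, the box bound by NF-Y, and TATAAA, the TATA box, on either strand.
Pou5f1 promoter: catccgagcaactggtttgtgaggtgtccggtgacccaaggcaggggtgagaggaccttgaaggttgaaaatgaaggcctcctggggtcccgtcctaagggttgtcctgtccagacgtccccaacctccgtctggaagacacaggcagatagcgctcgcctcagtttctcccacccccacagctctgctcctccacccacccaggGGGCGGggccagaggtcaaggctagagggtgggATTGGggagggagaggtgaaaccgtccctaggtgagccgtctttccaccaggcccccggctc
Axin2 promoter: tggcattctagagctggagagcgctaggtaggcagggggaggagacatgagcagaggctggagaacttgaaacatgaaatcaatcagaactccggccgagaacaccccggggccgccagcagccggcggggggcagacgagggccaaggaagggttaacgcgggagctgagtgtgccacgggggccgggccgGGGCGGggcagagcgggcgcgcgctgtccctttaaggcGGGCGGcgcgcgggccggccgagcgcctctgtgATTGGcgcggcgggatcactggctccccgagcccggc
H3c8 promoter: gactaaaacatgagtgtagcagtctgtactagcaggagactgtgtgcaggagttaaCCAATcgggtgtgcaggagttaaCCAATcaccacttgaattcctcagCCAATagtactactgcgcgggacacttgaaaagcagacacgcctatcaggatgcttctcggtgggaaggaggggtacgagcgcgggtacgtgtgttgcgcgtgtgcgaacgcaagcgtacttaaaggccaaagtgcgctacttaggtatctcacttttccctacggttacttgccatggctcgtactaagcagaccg
H2ac7 promoter: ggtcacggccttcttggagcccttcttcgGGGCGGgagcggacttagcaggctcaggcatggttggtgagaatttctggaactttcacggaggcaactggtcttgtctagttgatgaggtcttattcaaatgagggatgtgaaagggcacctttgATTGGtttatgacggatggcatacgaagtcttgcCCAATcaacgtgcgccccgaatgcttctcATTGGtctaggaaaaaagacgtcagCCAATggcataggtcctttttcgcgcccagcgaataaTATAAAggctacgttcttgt

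The Axin2 stretch holds 2 GC boxes, 1 CCAAT box and 31 CG dinucleotides, and the Pou5f1 stretch 1 GC box, 1 CCAAT box and 11 CG dinucleotides. The H3c8 stretch holds 3 CCAAT boxes and no GC box, while the H2ac7 stretch holds 4 CCAAT boxes, 1 GC box and 1 TATA box. The other sets are mature microRNAs whose hairpins lie in 2 of the windows, with the seed, bases 2 to 8, in capitals. The 5 below come from the miR-290 cluster (chr7:3218638-3220837 from the first to the last mature sequence), a cluster highly expressed in mouse ES cells, and were chosen because they share the seed bases AAGUGC.
miR-290a-3p: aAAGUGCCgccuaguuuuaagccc
miR-291a-3p: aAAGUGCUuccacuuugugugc
miR-291b-3p: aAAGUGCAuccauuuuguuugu
miR-294-3p: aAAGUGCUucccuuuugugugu
miR-295-3p: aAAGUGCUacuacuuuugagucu

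miR-291a-3p, miR-294-3p and miR-295-3p share all 7 seed bases, AAGUGCU, and the other two differ from them in the last base. The next 3 come from the miR-183 cluster on chromosome 6, minus strand, which lies in the window of Nrf1, a gene for a factor that activates nuclear genes of mitochondrial function.
miR-182-5p: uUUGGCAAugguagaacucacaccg
miR-96-5p: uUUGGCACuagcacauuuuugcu
miR-183-5p: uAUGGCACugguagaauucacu
The miR-182-5p and miR-96-5p seeds share their first 6 bases, UUGGCA.

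Depth differed between the lists. The autosomal part of the lists held 187536 to 212041 peaks, fewest in Hox-/- replicate 1. The background of each peak, recovered from its deposited fold and p-value, gave relative depths of 1 and 0.941 in the wild-type libraries and 0.640 and 0.987 in the Hox-/- libraries. Hox-/- replicate 1 therefore stood apart in depth, and the main genotype differences are also given without it. The label ES cells was checked against markers: all 8 stem cell genes (among them Sox2, Nanog and Klf4) had a peak summit within 1 kb of a gene end in every library, with median best ranks there of 28878.5 to 31981 (rank 1 is the peak with the smallest p-value of its list). The 6 fibroblast feeder genes also each had a peak, at median best ranks of 78034.5 to 103013.5, and 5 of 6 genes of differentiated lineages did, at 106861 to 148054. Single genes overlapped between the lists. Esrrb, a stem cell gene, ranked 109163 to 149259 over the 4 libraries, while Mesp1, of the differentiated lineages, ranked 40569 to 56179.

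Of the 100 windows, 49 held 15 wild-type regions, 35 held 16, 12 held 17, 3 held 18 and 1 held 19. Just outside the threshold, 159 windows held 14. The median over all windows with a region was 3. The dense windows lay on all autosomes but chromosome 14, from 12 windows on chromosome 11, 10 on chromosome 7 and 9 on chromosome 17 down to 1. Peak regions covered a median of 8.56 kb of a dense window (range 6.70 to 10.9), or 17.1% of it, and the median distance between neighbouring region midpoints was 2426 bp. In the windows of 10 to 14 regions, used below as the nearest comparison, the covered length was 6.60 kb and the distance 3478 bp. The individual regions of the dense windows were narrow, with a median width of 491.5 bp against 528 bp at 10 to 14 regions and 541 bp in all windows under 15.

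**Figure D1:**
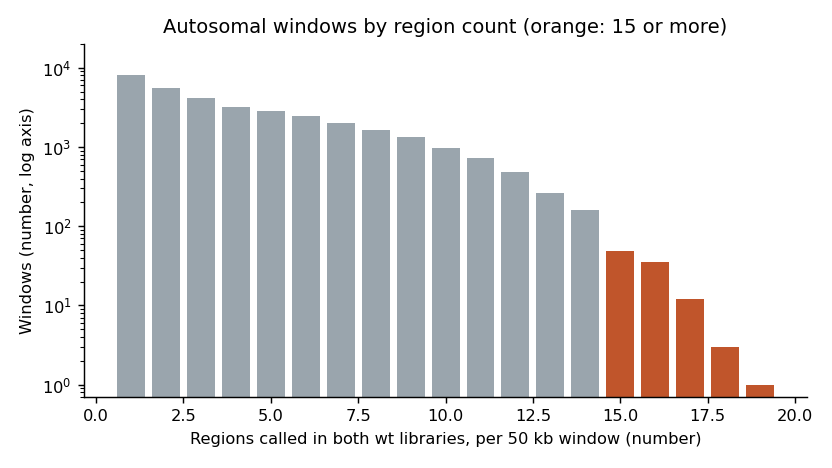
Number of 50 kb windows (y axis, log scale) by the number of regions both wild-type lists overlapped (x axis), with the 100 windows of 15 or more in orange. The counts run down from 159 windows at 14 regions to 49 at 15 and 1 at 19, with no gap at the threshold.

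The density did not stop at the window edges. The 192 different windows that flank a dense one and were not dense themselves held a median of 9 regions (range 1 to 14). Of these, 72 (37.5%) had 10 or more regions, against 7.62% of all windows of 1 to 14 regions. Dense windows lay next to each other in 2 pairs, one in the histone cluster of chromosome 13 and one on chromosome 7 around Ltbp4, Shkbp1 and Sptbn4.

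Dense windows were richer in genes than the rest. They overlapped 209 protein-coding genes, a mean of 2.11 per window against 1.82 in windows of 10 to 14 regions and 1.02 in all windows under 15. Only 5 windows had no protein-coding gene (5%, against 9.22% at 10 to 14 regions and 32.1% under 15). Of the rest, 45 had 1, 24 had 2, 15 had 3 or 4 and 11 had 5 or more. The share with 1 gene, 45%, was 44.3% at 10 to 14 regions and 46.0% under 15. A share of 11% with 5 or more genes stood beside 4.97% of the windows of 10 to 14 regions and 1.04% of the windows under 15. So most dense windows held 1 or 2 genes, and a minority were compact gene clusters.

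Most regions of the dense windows nevertheless lay away from gene ends. Of the 1572, 238 lay within 1 kb of either end of a protein-coding gene, a gene-end share of 15.1% (exact 95% binomial interval 13.4 to 17.0, which covers counting error only). By density class it was 9.64% in windows of 1 to 4 regions, 12.8% at 5 to 9 and 13.7% at 10 to 14, and 12.0% over all windows under 15. Around the threshold it did not climb: it was 13.3% in windows of 14 regions and 12.7% in windows of 15. Counting gene starts alone, it was 10.8% in dense windows and 8.76% under 15. Within 250 bp the shares were 6.93% and 6.31%, so the difference between the classes was 0.622 percentage points at that distance, 3.15 at 1 kb and 7.56 at 2.5 kb. The 1 kb difference was 1.23 points with the grid shifted by 25 kb, 10.6 with the 100000 strongest peaks, and 0.828 and 1.60 without wild-type replicate 1 and 2. At the other extreme, 46.2% of the dense-window regions were over 10 kb from any gene end, against 48.7% at 10 to 14 regions and 60.4% under 15. Neighbouring regions and genes share windows, so these shares are a description and were not tested.

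**Figure D2:**
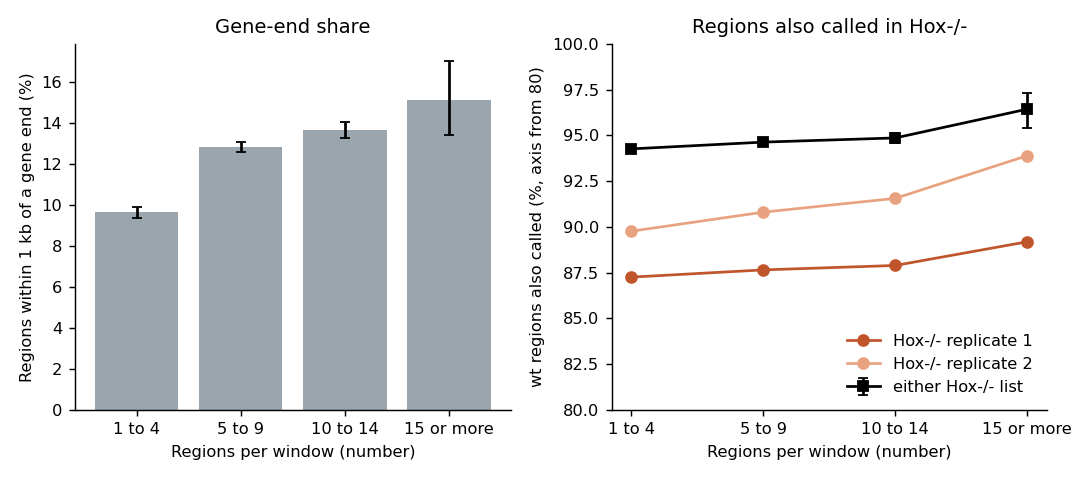
Left, share of regions within 1 kb of a protein-coding gene end (%, bars with exact 95% binomial intervals) by the number of regions in the window; right, share of the same regions that a Hox-/- peak also overlapped (%, axis starting at 80). The gene-end share goes from 9.64% to 15.1%, and the share also called in Hox-/- cells from 94.3% to 96.4%.

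Gene-end regions were unevenly spread. In 24 windows no region lay at a gene end, the median was 2, and in 5 windows at least 50% of the regions did. The most, 11, lay in the window of Trim28 (chr7:13000001-13050000), a corepressor that silences retrotransposons, which also holds Zbtb45, Chmp2a, Ube2m and Mzf1. Its counts were 17 and 16 in the wild-type and 15 and 17 in the Hox-/- libraries. At the other end, all 15 regions of the Esrrb window lay inside the gene and away from its ends. Leaving out the 5 windows with histone or tRNA genes, an alternative chosen after seeing the data, the gene-end share was 14.4%, against 12.0% elsewhere.

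The histone and tRNA windows of chromosome 13 were the densest by strong peaks. Histone genes supply the proteins that package new DNA, and tRNA genes are read by RNA polymerase III. When only the 100000 strongest peaks of each list were kept, 4 windows reached 15 regions, and all were among these windows of chromosome 13. The window of H4c8, H2ac10, H3c8, H2bc9 and H3c7 (chr13:23500001-23550000) had 19 and 17 regions in the wild-type and 17 and 19 in the Hox-/- libraries. Its neighbour with 10 histone genes, H4c6 to H2bc6 (chr13:23550001-23600000), had 16, 18, 17 and 18, and 10 of its regions lay at gene ends. The Zfp184 window (chr13:21900001-21950000), with a zinc finger gene and 15 tRNA genes, had 17 regions in each of the 4 libraries. The Abt1 window (chr13:23400001-23450000), with 17 tRNA genes and a gene for a basal transcription activator, had 16 in each. In none of these windows did the genotypes separate.

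Of 391 tRNA genes, 49 (12.5%) lay in dense windows, all in 4 windows, and regions overlapped 40 of the 49. The 4 windows held 65 regions, of which 28 lay within 250 bp of a tRNA gene, out of 169 such regions on all autosomes. The other window with tRNA genes, which held 4 of them beside Aurkb, Borcs6, Tmem107, Vamp2 and Per1 (chr11:69050001-69100000), had 17, 15, 14 and 15 regions. Histone and tRNA genes exist in near-identical copies, and how reads that match several copies were treated is not given in the sources used here, so the values at single copies are uncertain. These windows also depended on the grid: after shifting it by 25 kb, none of the 118 dense windows held a histone gene, while 5 held tRNA genes.

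**Figure D3:**
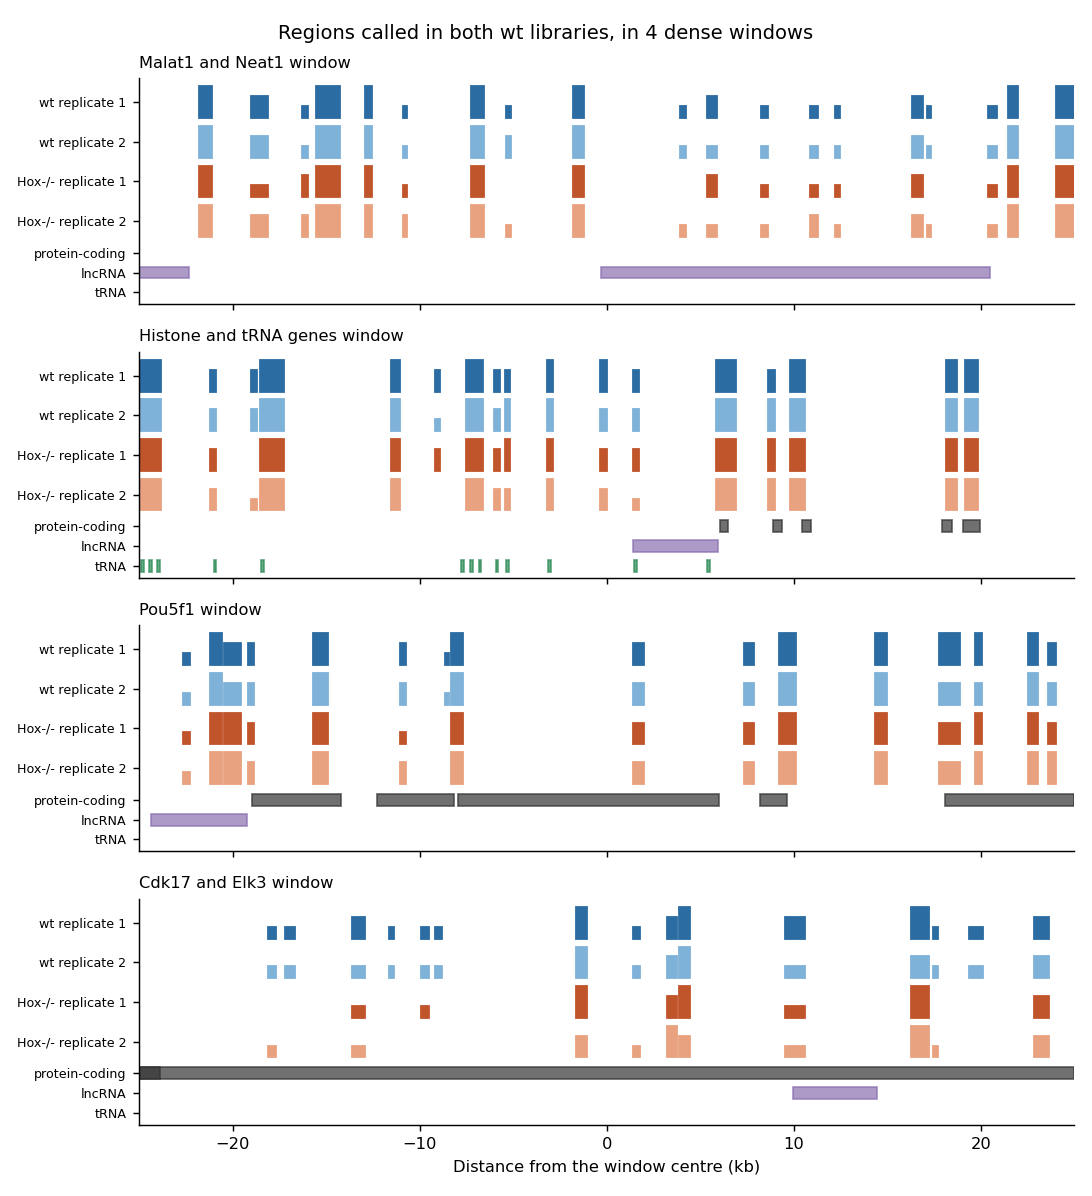
Peak regions (blocks, by distance from the window centre in kb) in each of the 4 libraries, with protein-coding, lncRNA and tRNA genes below, for 4 windows: Malat1 and Neat1, histone and tRNA genes, Pou5f1, and Cdk17 and Elk3. Tall blocks rank in the strongest 50000 of their library, middle ones up to 100000 and short ones below, and the blocks missing from the Hox-/- tracks of the last window are short.

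By number of regions alone, the top window held no protein-coding gene. It carries Malat1 and Neat1 (chr19:5800001-5850000), 2 abundant nuclear long noncoding RNAs, and had 20 and 21 regions in the wild-type and 18 and 22 in the Hox-/- libraries. Hap1 and Jup (chr11:100350001-100400000), the latter encoding the junction protein plakoglobin, followed with 19, 18, 18 and 18, and this window held peaks as strong as rank 116. The window of Mcl1, an anti-apoptotic gene, and Adamtsl4 (chr3:95650001-95700000) had 19, 18, 17 and 18. In each of these 3 windows the counts of the genotypes overlapped or touched.

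The histone window H4c8 to H3c7 was also among the 10 windows with the most regions, and the other 6 held mostly single genes. Dst (chr1:34050001-34100000), a linker of cytoskeletal filaments, had 19 and 19 regions against 14 and 18, and Macf1 (chr4:123600001-123650000), of the same family, 18 and 19 against 16 and 16. Both were lower in each Hox-/- library, as were 35 of the 100 dense windows and 31.1% of the windows of 10 to 14 regions. Kif14, a mitotic kinesin, had 20, 18, 15 and 19 regions, Cnn3, an actin-binding calponin, 17, 17, 18 and 17, and the pair Apobec3 and Cbx7, a cytidine deaminase and a Polycomb subunit, 19, 17, 17 and 17. A window with the long noncoding RNA Gm12052 and no protein-coding gene (chr11:22600001-22650000) had 19, 17, 17 and 18. The wild-type rule left 12 windows tied at 17 regions for the last 6 of these 10 places, and the sum over all 4 libraries, Hox-/- included, decided which were named. No theme was tested over these genes.

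Of 27 listed pluripotency genes, 4 lay in dense windows (14.8%), beside 209 of all 20665 protein-coding genes (1.01%): Pou5f1, Esrrb, Tet1 and Dppa5a. The Pou5f1 window (chr17:35500001-35550000), with the gene for the core factor Oct4 and with Tcf19, Cchcr1, Psors1c2 and Cdsn, had 16, 16, 15 and 16 regions. The Pou5f1 promoter was not among its strongest regions. The region at chr17:35503811-35504451, 1902 bp upstream of the Pou5f1 start, ranked 5876 and 6081 in the wild-type and 6655 and 3866 in the Hox-/- libraries. The region over the promoter sequence printed above ranked 63048, 68229, 84456 and 57591. A region at chr17:35516682-35517336, at the ends of Tcf19 and Cchcr1, ranked 9248, 10008, 4774 and 4147. The Pou5f1 promoter region thus ranked below both in all 4 libraries.

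Esrrb encodes a nuclear receptor of the naive pluripotency network, and its window (chr12:86450001-86500000) had 15 regions in each of the 4 libraries. Tet1, an enzyme that oxidises methylated cytosine, had 18 and 19 regions against 14 and 17 (chr10:62850001-62900000). It was lower in each Hox-/- library, as 31.1% of the windows of 10 to 14 regions were. The best peak of the Tet1 window ranked 7874, 10379, 8237 and 6916, so it was in the strongest part of every list. Dppa5a, which encodes an RNA-binding protein of pluripotent cells, shares its window with Ooep and Ddx43 (chr9:78350001-78400000), where the counts were 16, 17, 16 and 14. The pluripotency count was grid-dependent: with the windows shifted by 25 kb the dense ones held Nodal and Tet1, and with a threshold of 12 regions they held 7 of the genes.

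Most other gene lists had few members, and their shares stand beside the 1.01% of all protein-coding genes. Of 13 signalling genes only Axin2 (7.69%), the Wnt feedback scaffold, lay in a dense window (chr11:108900001-108950000), with 17 and 18 regions against 14 and 14. The region over its promoter, printed above, ranked 11496 and 13154 in the wild-type and 9322 and 15455 in the Hox-/- libraries, so it was called in all 4. Of 18 chromatin regulators only Trim28 was a member (5.56%), and of 91 ribosomal protein genes only Rpl38 (1.10%), whose window with Ttyh2 had 16, 16, 14 and 14 regions. Zinc finger genes gave 4 of 388, or 1.03% (Zfp184, Zfp217, Zfp428 and Zfp740). None of 12 early lineage genes, 57 protocadherin genes or 1104 olfactory receptor genes was a member, while histone genes gave 15 of 67 (22.4%). Among noncoding classes, 18 of 1136 microRNA genes (1.58%), 83 of 12408 lncRNA genes (0.669%) and 18 of 8884 pseudogenes (0.203%) lay in dense windows.

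Among promoters that overlapped a region, the GC box was no more frequent in dense windows than elsewhere. Of 182 promoter entries there, for 139 genes, 82.4% overlapped a wild-type region, against 64.4% of 19903 others; the windows were chosen for their many wild-type regions, so that contrast is part of the choice. GGGCGG was found in 58.2% of the dense-window entries and in 47.0% of all 20085 entries. Among entries with a region it was in 62.0% of dense-window and 66.0% of other entries. CCGGAAG, bound by ETS factors, was in 12.6% and 11.9% of all, the NRF1 motif in 1.10% and 1.34%, and CCAAT in 36.8% and 38.1%. TATAAA was in 13.7% and 12.7%, and among entries with a region in 15.3% of dense-window and 6.21% of other entries. The histone genes were part of that: 8 of their 14 dense-window promoters held TATAAA and 12 held CCAAT, and without them the TATAAA share was 11.03%. Each motif was searched on both strands and counted whether or not it overlapped another, and a match is a run of letters, not a bound site.

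Each library was next compared over the 100 windows. Wild-type replicates 1 and 2 had a mean of 16.65 and 16.58 regions per window, with ranges of 15 to 20 and 15 to 21. The Hox-/- replicates had 14.86 and 15.94, with ranges of 8 to 18 and 10 to 22. All 100 windows reached 15 in both wild-type lists, 59 did in Hox-/- replicate 1 and 80 in replicate 2. The genotype means were 16.6 ± 0.0495 and 15.4 ± 0.764 (SD, n = 2 libraries each), a difference of -1.22 regions. Without the shallower Hox-/- replicate 1 the difference was -0.668, with the 100000 strongest peaks of each list, where only 4 windows were dense, it was -0.125, and without wild-type replicate 1 or 2 it was -2.07 or -2.10. The wild-type side was fixed by the choice of windows, so no test is given.

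**Figure D4:**
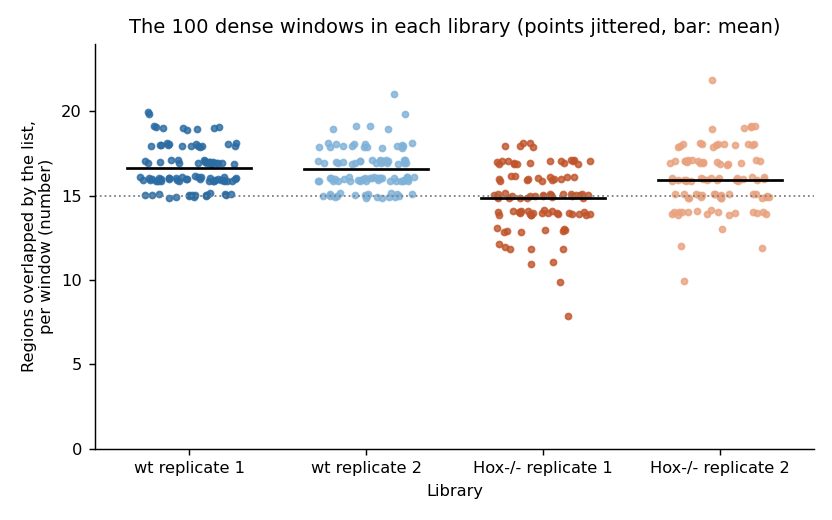
Regions per dense window (y axis) in each of the 4 libraries, with 1 point per window, a bar at the mean and a dotted line at 15. The wild-type points all sit at or above the line, and the means are 16.65, 16.58, 14.86 and 15.94.

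The difference was seen to a like extent in windows outside the threshold, which were also classed by their wild-type counts. In the windows of 10 to 14 regions the means were 12.2 and 12.2 in the wild-type and 10.7 and 11.5 in the Hox-/- libraries, which is 0.882 and 0.944 of the wild-type mean, beside 0.894 and 0.959 in the dense windows. At 14 regions, just outside, the 4 means were 14.89, 14.95, 13.04 and 13.96, and at 15, just inside, they were 16.04, 15.82, 14.22 and 15.06. When windows were chosen on wild-type replicate 1 alone, 318 windows had means of 15.8 in that library, 14.9 in wild-type replicate 2, and 13.1 and 14.3 in the Hox-/- libraries. Chosen on wild-type replicate 2 alone, 299 windows had 15.9 in that library, 14.9 in the other wild-type library, and 13.3 and 14.4. The library that chose the windows was the higher wild-type one in both cases. Both Hox-/- libraries were below the wild-type library that took no part. They reached 0.879 and 0.963 of it by the first choice, and 0.890 and 0.962 by the second. Over all autosomes the Hox-/- lists also overlapped fewer regions, 146894 and 155733 against 163215 and 165461 in the wild-type libraries. The part of list length in the difference was not tested.

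As a share of each library's own regions, the dense windows took 1.00% to 1.02%, and the genotypes overlapped. They held 1665 and 1658 of the regions in the wild-type and 1486 and 1594 in the Hox-/- libraries, or 1.02% and 1.00% against 1.01% and 1.02%. The difference was 0.00649 percentage points (wild-type 1.01 ± 0.0128, Hox-/- 1.02 ± 0.00844, SD, n = 2 libraries each), and 0.0132 without Hox-/- replicate 1. The wild-type lists chose the windows, so this too is a description with no test. Its sign changed with the window grid and the threshold, and without either wild-type library, so no direction is read from it.

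Window by window, 35 of the 100 had fewer regions in each Hox-/- list than in each wild-type list, 3 had more and 62 overlapped. Over all 34146 windows 14.6% were lower and 2.85% higher by the same rule, and over windows of 10 to 14 regions 31.1% were lower and 1.85% higher. The rule chose windows on the wild-type side of this contrast, so the 35 are printed beside these shares and nothing is read from them. The share of dense windows that were lower was 40.6% without Hox-/- replicate 1, 67.0% without Hox-/- replicate 2, and 65.7% and 65.6% without wild-type replicate 1 and 2. The ratio of Hox-/- to wild-type means had a median of 0.936, from 0.60 to 1.10, and was below 1 in 77 windows, at 1 in 11 and above 1 in 12.

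The lowest ratio, 0.60, was in the window of Cdk17 and Elk3 (chr10:93250001-93300000), a cyclin-dependent kinase and an ETS factor. It had 15 regions in both wild-type libraries and 8 and 10 in the Hox-/- libraries, and 4 of its regions met no Hox-/- peak. Its best peaks ranked only 36815, 47263, 32196 and 39641, and none of its regions lay at a gene end. Mical3, an actin-oxidising enzyme, followed (15, 16, 10 and 12 regions, 3 unmatched), then the window of Efnb3, Wrap53, Trp53 and Atp1b2 (16, 16, 12 and 12), Pawr, a pro-apoptotic gene (18, 17, 13 and 14), and Mta3, a subunit of the NuRD complex (16, 16, 11 and 14). In these 5 windows both Hox-/- libraries were below both wild-type libraries, but the windows were picked for low ratios, so nothing is read from that. By the same rule 14.6% of all windows and 31.1% of the windows of 10 to 14 regions were lower.

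The highest ratio, 1.10, was in the Nlrp12 window with the miR-290 cluster (chr7:3200001-3250000), with 15 and 16 regions in the wild-type and 17 and 17 in the Hox-/- libraries. Its best peak, at chr7:3201072-3201849, ranked 1492, 951, 962 and 1315. The regions over the hairpins were weak: that at chr7:3218780-3219215 ranked 130544 and 110881 in the wild-type and 93632 and 70129 in the Hox-/- libraries. The strongest open site of the window therefore lay upstream of the microRNAs. Zfp217, a zinc finger gene, had 16, 16, 17 and 18 regions, Ier2 with Nacc1 and Trmt1 16, 16, 17 and 17, and Fam120a 15, 17, 17 and 17.

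Applied to the Hox-/- lists, the same rule kept 47 windows, or 226 without replicate 1, when a region needed only replicate 2. Of the 47, 37 were among the 100, which is 37.0% of the wild-type set and 78.7% of the Hox-/- set. The other 10 were near misses, with 14 wild-type regions in 6, 13 in 3 and 12 in 1.

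Nearly every region of the dense windows was also called in Hox-/- cells. A Hox-/- peak overlapped 1516 of the 1572 (96.4%, exact 95% interval 95.4 to 97.3), and both lists overlapped 86.6%. By library, Hox-/- replicate 1 overlapped 1402 (89.2%) and replicate 2 1476 (93.9%), against 87.6% and 90.6% of the regions of other windows. The remaining 56 (3.56%) met no Hox-/- peak, beside 5.41% of all 143573 regions. Presence in the wild-type lists is what the rule used, and the Hox-/- peaks entered the merging of regions (without Hox-/- replicate 1 or 2 there were 101 or 109 dense windows), so this is a description.

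Unmatched regions were weak and scattered. They lay in 44 windows, 35 of which had 1 and 7 of which had 2, and 7 of them lay at a gene end. Their median width was 287 bp against 501 bp for the matched ones. By the weaker of its 2 wild-type ranks, the median unmatched region stood at 167222.5 and the median matched one at 72530. All but 1 of the 56 were beyond rank 100000, and that one, in the Efl1 window at chr7:82771182-82771682, stood at 94965.

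The matched share differed by strength. By the weaker wild-type rank, all 268 regions up to rank 25000 and all 273 from there to 50000 were matched, beside 99.97% and 99.94% elsewhere. Between ranks 50000 and 100000 the shares were 99.8% and 99.8%. Between 100000 and 150000 they were 94.3% in dense windows (exact 95% interval 91.3 to 96.6) and 95.9% elsewhere, and beyond 150000 they were 84.9% (79.8 to 89.2) and 80.6%. The dense windows had fewer of the weakest regions, 15.2% against 22.8%. In the other direction, 9 of the 1820 merged regions in the dense windows were in both Hox-/- lists and neither wild-type list. On all autosomes 2523 of 203684 were. The windows were chosen for many wild-type regions, so this count is a description.

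Peaks in the dense windows ranked higher but had lower fold enrichment than peaks elsewhere. Their median ranks were 68416.5 and 68459 in the wild-type and 69788.5 and 67794 in the Hox-/- libraries. Windows of 10 to 14 regions lay between, at 77193.5 to 79320.5, and all regions outside the dense windows stood at 81886 to 83652. The median folds over background in the dense windows, the authors' values, were 4.18, 4.27, 4.40 and 4.31, against 5.49, 5.61, 5.83 and 5.62 elsewhere. The order of the classes was the same in each of the 4 libraries, including the Hox-/- libraries, whose peaks entered the merging of regions but not the count that chose the windows. A fold is a pileup over its local background, and both were recovered. The median background was 27.96, 27.48, 19.54 and 26.09 reads in dense windows against 10.22, 9.74, 7.0 and 10.14 elsewhere. The median pileup was 111, 111, 83 and 107 reads against 58, 57, 44 and 58. Background in the dense windows was thus 2.57 to 2.82 times that elsewhere, a larger ratio than that of the pileups. The part of neighbouring peaks in that background was not tested.

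**Figure D5:**
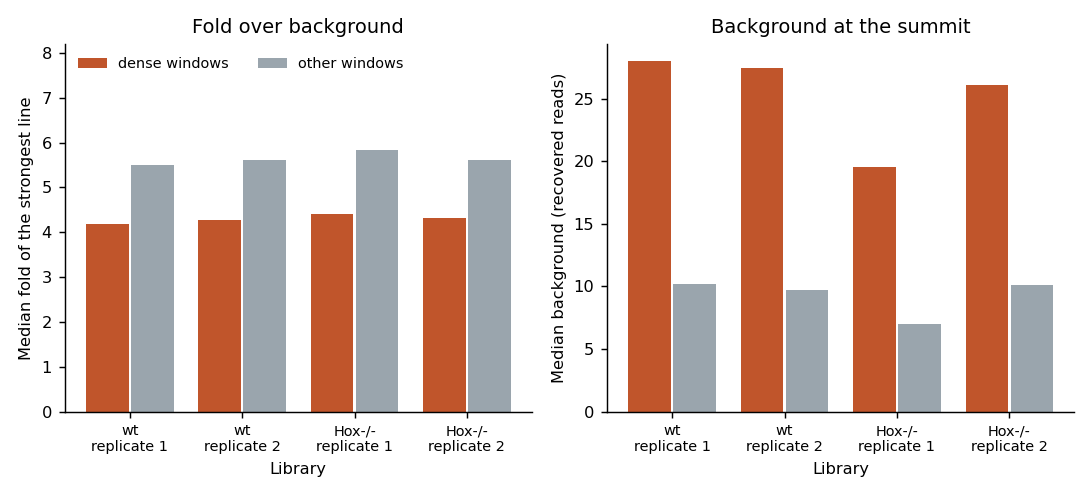
Median fold over background (left) and median recovered local background in reads (right) of regions in dense and in other windows, for each of the 4 libraries. In every library the fold is lower in dense windows (4.18 to 4.40 against 5.49 to 5.83) and the background higher (19.54 to 27.96 against 7.0 to 10.22).

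Gene-end regions made up a slightly larger part of each Hox-/- list. Within dense windows the share was 14.8% and 15.1% of the regions in the wild-type and 15.9% and 15.6% in the Hox-/- libraries, which did not overlap, a difference of 0.798 percentage points. Without Hox-/- replicate 1, the remaining 15.6% was also above both wild-type values. These shares are over the regions of windows that the wild-type lists chose, so they are a description with no test. Other windows differed in the same direction, by 0.542 points, from 11.2% and 11.1% to 11.8% and 11.5%. In wild-type replicate 1 the median rank in dense windows was 40182.5 at gene ends and 75019.5 away from them, and the Hox-/- lists were shorter. The part of list length in the difference was not tested.

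The Hox genes, which encode the transcription factors that pattern the body axis, were not among the members: none of the 39 lay in a dense window. The 13 windows that overlap them held 7 to 14 regions by the rule. The highest, from Hoxa3 to Hoxa11 (chr6:52200001-52250000), held 14 by the rule, with 16 and 18 in the wild-type libraries and 0 and 0 in the Hox-/- libraries. At a threshold of 12 regions, 5 of the 996 windows held a Hox gene. By contrast, every dense window had at least 8 regions in Hox-/- replicate 1 and at least 10 in replicate 2.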

How the data were processed

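ATAC-seq peak lists of 2 wt and 2 Hox-/- mouse ES cell libraries were analysed, 1 list per library, with mm10 coordinates. The submitters' processing notes name cutadapt 4.8, Bowtie2 2.5.0, Picard 2.18.2, bedtools 2.30.0, MACS2 2.2.9.1 and deepTools 3.5.4, without settings or roles. The authors' deposited lists give for each peak a fold enrichment, a ratio over local background, and −log10 p and q values; read totals were not used here, so depth is known only relative to the other libraries.

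Autosomal peaks of all lists were merged where they overlapped by at least 1 bp and placed in 50 kb windows by midpoint; several peak lines of a library in 1 region counted once. Genes, promoters and microRNAs came from RefSeq (GRCm38.p6, the same coordinates as mm10). The local background and pileup were recovered as the Poisson pair that gives a line's fold and p-value, for lines with −log10 p under 200; all pileups came out whole within 0.1. Values per library in the windows that the wt lists chose are given as descriptions; the exact permutation over libraries that was planned is not reported, because the rule set the wt side. Python 3.11.15, numpy 2.4.6, pandas 2.3.3, scipy 1.17.1 and matplotlib 3.10.9 were used. The scripts were tested on simulated data.

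The members and lists were chosen with earlier results of these data known. Named were the 10 windows with most regions, the 5 with the lowest and 5 with the highest Hox-/- to wt ratio, and list genes in any dense window; the microRNA and tRNA classes, Malat1, Neat1, Gm12052, the printed promoters and the windows under other observations were chosen after their values were seen. Some windows that this rule names are not reported here.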

Additional observations from a re-analysis of the deposited data

How the results depend on the processing

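The number of dense windows, 100, was set by the threshold: 12 or more regions gave 996 windows (523 by the Hox-/- lists) and 20 or more gave 0 (0 by the Hox-/- lists), so no other value exists there. Peaks with −log10 q of at least 5 gave 62 and 20, and the 100000 strongest peaks 4 and 5. The difference in the share of regions, 0.00649 percentage points, turned to -0.0995 at 12 or more regions, -0.0113 with the windows shifted by 25 kb and -0.00013 with the strongest peaks. The share also overlapped in Hox-/- cells became 94.9% at 12 or more and 98.4% with the strongest peaks. The gene-end difference became 1.23 points with the shift, 10.6 with the strongest peaks, 0.622 within 250 bp and 7.56 within 2.5 kb. Pluripotency genes numbered 7 at 12 or more, 2 with the shift and 0 with the strongest peaks, where 0 windows were lower. The causes were not tested.

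Leaving out 1 library at a time gave 101 to 340 windows (49 to 226 by the Hox-/- lists), share differences from -0.21 to 0.0132 (negative without either wild-type library), region differences from -2.10 to -0.668 per window, 88.5% to 93.9% overlapped, gene-end differences from 0.828 to 3.5 points, 40.6% to 67.0% of windows lower, and 4 to 6 pluripotency genes. A rule on 1 list keeps more windows by construction. The difference in regions per window kept its sign under every alternative that gave a value, and was smallest, -0.125, with the 100000 strongest peaks of each list. Wild-type lists chose the windows in all of these alternatives. The sign was thus close to fixed by the choice, and nothing is read from its constancy.

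With the replicate number as a replicate block, the differences were 0.00649 points and -1.22 regions, as without it. The replicate numbers did not pair the libraries (r = -0.0105 over 34146 windows). The alternatives for non-overlapping windows, gene lists, choice on 1 wild-type list and windows without histone or tRNA genes were chosen after seeing the data. Merged regions count calls, not accessibility.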

Other observations

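Several dense windows outside the named lists held single regulators, and were picked after their values were seen. Cdh1, the epithelial cadherin of ES cell colonies (chr8:106600001-106650000), had 18 and 18 regions in the wild-type and 15 and 17 in the Hox-/- libraries. Hes1, a repressor downstream of Notch (chr16:30050001-30100000), had 18, 18, 16 and 16, and Pim1, a kinase gene (chr17:29450001-29500000), 17, 17, 13 and 14. All 3 were lower in each Hox-/- library, as 31.1% of the windows of 10 to 14 regions were. Trim71, an RNA-binding repressor and let-7 target that lies with Ccr4 (chr9:114500001-114550000), had 18, 20, 16 and 17.

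Tcf7l1, the Wnt-pathway repressor of pluripotency genes (chr6:72650001-72700000), had 16, 15, 14 and 15 regions, and its best peaks ranked 1596, 2465, 1164 and 1806. Etv5, an ETS factor (chr16:22400001-22450000), had 16, 15, 14 and 14, with best peaks at ranks 1652, 1404, 2903 and 1169. Kdm2b, a histone demethylase that binds CpG islands (chr5:122900001-122950000), had 16, 15, 14 and 14, with best peaks at 11278, 13415, 15814 and 18693. The lists differ in length, so these ranks place a peak within its own list only.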
